A study of Mus musculus with 4 samples.

Results

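A set of receptors that hold blood progenitors in the bone marrow or lead them back to it were read in Quant-seq counts of KL cells of donor origin (Kit+Sca1-Lin- myeloid progenitors). They are *Cxcr4*, *Itga4*, *Itgb1*, *Itgal*, *Itgb2*, *Itgb7*, *Selplg*, *Cd44* and *Cd47*, chosen by gene symbol, and all 9 had a row among the 12067 genes of the table. The 4 libraries came from *Ptprca* recipients, 20 weeks after they were given whole bone marrow, and the sort kept CD45.2-positive cells, which excludes the CD45.1-positive cells of the recipients. In 2 libraries the donors carried the floxed *Bcor* allele together with an inducible Cre (scl-Cre-ERT +; Bcorfl/y), named BcorΔE9-10. In the other two the donors carried the same floxed allele without Cre (Bcorfl/y), named BcorWT, so that both genotypes share the allele and the transplant and differ in the Cre transgene and the deletion. Recipients were irradiated females and donors were male. The Cre is driven by a stem cell enhancer of *Tal1* (SCL) and was switched on with tamoxifen in the donor, so *Bcor* was deleted in stem cells and the KL cells descend from these. The transplants bear on how marrow cells that lack functional Bcor repopulate a recipient, and the receptors were therefore compared between BcorΔE9-10 and BcorWT. The labels do not state whether the 2 libraries of a genotype came from separate recipients or donors, and p-values measure the spread between these libraries only.

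Transplanted cells reach the marrow in steps that depend on separate receptors. P-selectin glycoprotein ligand (*Selplg*) and glycoforms of *Cd44* let a cell roll on the selectins of the vessel wall. The chemokine Cxcl12, made by marrow stroma, acts through *Cxcr4* and switches integrins to a state of high affinity. The integrin VLA-4 (*Itga4* with *Itgb1*) then binds Vcam1 and fibronectin, LPAM-1 (*Itga4* with *Itgb7*) binds MAdCAM-1, and LFA-1 (*Itgal* with *Itgb2*) binds Icam1. *Cd44* also holds hyaluronan in the niche, and *Cd47* gives macrophages a signal through Sirpa not to engulf the cell. *Cxcr4* and VLA-4 are also what retains progenitors in the marrow, as blocking either releases them into the blood.

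The upstream sequences of 3 members are shown, since *Cxcr4* had the widest spread between BcorWT libraries among the members, and *Itga4* and *Itgb7* form the heterodimer whose subunit ratio separated the genotypes. RefSeq entries on GRCm38.p6 matched 6 of the 9 members by symbol. Each line gives the 250 bases before the RefSeq start of the gene, 5′ to 3′ on its own strand, from chr1:128592300-128592549 (minus strand) for *Cxcr4*, chr2:79255176-79255425 (plus strand) for *Itga4* and chr15:102231936-102232185 (minus strand) for *Itgb7*. Capitals mark letters of any motif searched on either strand, which were the NRF1 core GCATGCGC, the RUNX core TGTGGT, the PU.1 core GAGGAA, the E-box CACGTG, the TATA box TATAAA and the GC box GGGCGG.
Cxcr4 promoter: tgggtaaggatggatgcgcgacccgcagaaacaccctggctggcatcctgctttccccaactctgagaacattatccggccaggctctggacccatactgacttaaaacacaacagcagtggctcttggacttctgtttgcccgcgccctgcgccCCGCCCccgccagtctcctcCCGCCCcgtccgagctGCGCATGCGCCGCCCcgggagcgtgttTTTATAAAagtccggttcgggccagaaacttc
Itga4 promoter: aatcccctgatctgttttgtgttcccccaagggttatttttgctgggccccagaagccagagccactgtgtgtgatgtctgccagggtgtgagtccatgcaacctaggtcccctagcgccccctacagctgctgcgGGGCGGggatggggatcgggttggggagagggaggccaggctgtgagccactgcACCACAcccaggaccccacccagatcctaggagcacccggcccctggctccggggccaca
Itgb7 promoter: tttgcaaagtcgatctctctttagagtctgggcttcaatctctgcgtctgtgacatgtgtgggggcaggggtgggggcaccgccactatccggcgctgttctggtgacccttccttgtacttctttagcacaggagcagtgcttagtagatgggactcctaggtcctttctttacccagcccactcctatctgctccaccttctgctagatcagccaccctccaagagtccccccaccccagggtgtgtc

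The *Cxcr4* window held the NRF1 core on both strands within the bases from -59 to -50, counted with -1 as the base just before the start. One of its 3 GC boxes shares a base with this stretch, and the TATA box at -30 to -25 overlaps another on the opposite strand at -32 to -27. The NRF1 core was found in 2.25% of 32817 promoter windows of the same length, the TATA box in 12.4% and the GC box in 32.7%. The *Itga4* window held a GC box and, from -60 to -55, the RUNX core on the opposite strand, which 14.0% of all windows held. The *Itgb7* window held none of these letters. The E-box, found in 6.02% of windows, was in none of the 6 member windows, and the PU.1 core, found in 23.3%, was in those of *Cd44* and *Itgb1*. These matches describe the sequence and were not tested against the counts.

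The libraries held between 3825289.5 and 6253100.5 counts, and 3 counts correspond to between 0.489 and 0.876 CPM (counts scaled to a common library total, after TMM). Every member had at least 58 counts in each library, so none was limited by this floor. The c-Kit transcript *Kit* was at 29.4 to 61.9 CPM, and *Ly6a*, which encodes Sca-1, was at 0 to 3.80 CPM. A single lincRNA gene, *Gm42418*, held 27.9% (95% Wilson interval 27.8 to 27.9%) of the counts of BcorWT replicate 1 and 1.43% (1.42 to 1.45%) of BcorWT replicate 2, with 14.3 to 16.3% in BcorΔE9-10. Across genes, log2 CPM of the BcorWT libraries correlated less with each other (Pearson's r 0.893) than those of any of the other 5 library pairs (0.901 to 0.947). The 10 transcripts listed for mature neutrophils added up to 53020 and 130365 CPM in BcorΔE9-10 replicates 1 and 2 and to 77419 and 88238 CPM in BcorWT replicates 1 and 2. Most of each sum was *S100a8*, *S100a9* and *Camp*, and the other listed genes were each lower than these in every library. The lowest were *Cxcr2* (0.924 to 9.97 CPM) and *Il1b* (3.10 to 3.50 CPM). Of 10 T and NK cell markers 3 had a row, *Lck*, *Nkg7* and *Klrb1c*, adding up to 131 to 151 CPM in BcorΔE9-10 and 136 and 262 CPM in BcorWT, nearly all of it *Nkg7*. Late erythroid transcripts, with 4 of 7 listed genes in the table, all globins, were higher in BcorΔE9-10 without overlap, adding up to 73.0 and 69.8 CPM against 19.3 and 45.9 CPM. Each of the 4 was higher without overlap, where 16.8% of all genes were higher and 17.1% lower without overlap. The 10 genes of the progenitor list overlapped in sum (7989 and 5210 CPM against 7618 and 6583 CPM). Stromal and endothelial transcripts, with 2 of 7 in the table, were lower in sum without overlap (5.54 and 5.22 CPM against 5.84 and 7.15 CPM) although both genes, *Pdgfrb* and *Col1a1*, overlapped, while the summed B cell, monocyte and macrophage, and megakaryocyte lists overlapped. Single genes of the progenitor, monocyte and megakaryocyte lists did separate without overlap, beside the shares of all genes given for the globins. Lower in BcorΔE9-10 were *Cd34*, *Csf1r*, *Cd68* and *Pf4* (14.8 and 12.4 CPM against 23.4 and 30.1 CPM). Higher were *Myb*, *Fcgr3*, *Cd14* and *Klf1* (4.44 and 2.77 CPM against 0.292 and 0.753 CPM). None of these passed edgeR's test at an adjusted p under 0.05. The sort took lineage-negative cells, and the lineage antigens of the study include CD5, B220, CD11b, Gr-1 and Ter-119. The part of the listed cell types in the receptor values was not tested.

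None of the 9 receptors differed between the genotypes in edgeR's quasi-likelihood test at an adjusted p under 0.05 (0 of 9), where 0.0166% of all genes did, and their adjusted p was 0.945 or higher. At an unadjusted p under 0.05 there were also 0 of 9, beside 1.34% of all genes higher and 3.07% lower in BcorΔE9-10, and limma-voom and DESeq2 gave 0 of 9 as well, adjusted or not. The log2 fold change (BcorΔE9-10 against BcorWT) was above 0 for 5 members and below 0 for 4. It ranged from -0.70 to 0.42 with a median of 0.16, beside -0.03 over all genes. The range of CPM did not overlap between genotypes for 1 of the 9, *Itgb7*, which was lower in BcorΔE9-10, where 17.1% of all genes were lower and 16.8% higher without overlap. For 8 of the 9 members the fitted change was smaller than the wider of the 2 gaps between libraries of 1 genotype. In bulk RNA, fewer cells that carry a transcript and less transcript per cell cannot be told apart.

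**Figure D1:**
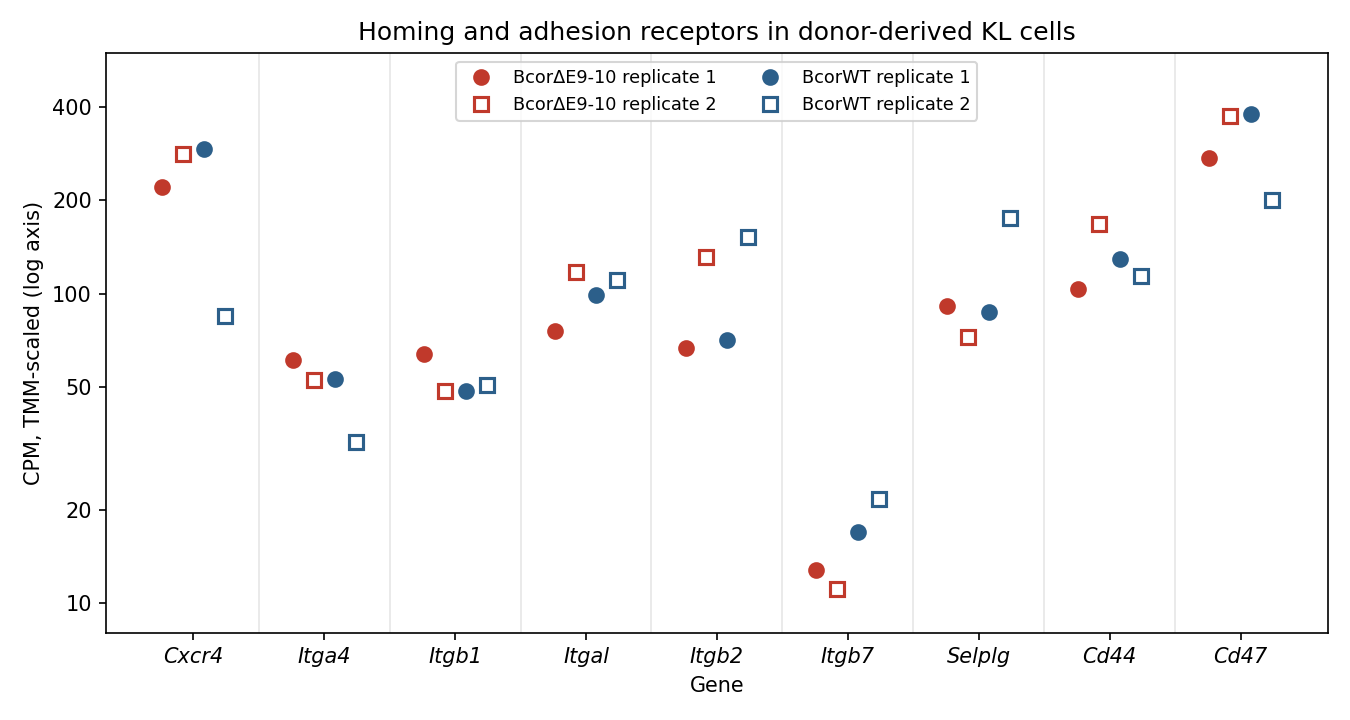
Level of the 9 receptor genes in each library, as TMM-scaled CPM on a log axis, with red for BcorΔE9-10, blue for BcorWT, filled circles for replicate 1 and open squares for replicate 2. BcorWT replicate 2 lies below the other three libraries for *Cxcr4* (84.5 CPM against 221 to 294), *Itga4* and *Cd47*, and above them for *Selplg*, *Itgb2* and *Itgb7*.

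*Cxcr4* (ENSMUSG00000045382, chromosome 1 from 128588199 to 128592293, minus strand, GRCm38) encodes the Cxcl12 receptor. It had 1196 and 1739 counts in BcorΔE9-10 replicates 1 and 2, and 1008 and 449 in BcorWT replicates 1 and 2. Scaled, these were 221 and 283 CPM against 294 and 84.5 CPM. Both BcorΔE9-10 libraries thus lay between the BcorWT libraries, of which replicate 1 was 3.48-fold above replicate 2. A gap wider than this between the BcorWT libraries was seen for 7.43% of 12017 genes with counts in both. The mean was 252 ± 44.1 CPM (SD, n = 2) in BcorΔE9-10 and 189 ± 148 CPM in BcorWT, a log2 fold change of 0.42 (standard error 0.54, 95% interval -0.85 to 1.68, edgeR adjusted p = 0.956). With every library kept, this log2 fold change was 0.68 in limma-voom and 0.66 with a block for the replicate number, and neither fit called *Cxcr4*.

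The call for *Cxcr4* rested on which BcorWT library was kept. Without BcorWT replicate 1 its log2 fold change was 1.57 (standard error 0.31, edgeR adjusted p = 0.0296), the single member called in any fit, in a fit that called 596 genes or 4.94% of all, against 2 with every library. Without BcorWT replicate 2 it was -0.22 (standard error 0.30, edgeR adjusted p = 0.979). The share of counts taken by *Gm42418* also differed between these libraries, as given above, and its part in the *Cxcr4* values was not tested. With *Gm42418* left out of the table, the log2 fold change of *Cxcr4* was 0.41 and the number of members called stayed at 0.

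The genes most like *Cxcr4* over the 4 libraries, by Euclidean distance of centred log2 CPM among 8092 other genes above 10 CPM, were *Ccne2* (distance 0.0608), *Cox20-ps* (0.107) and *Gm26527* (0.122). *Ccne2*, which encodes cyclin E2, was at 27.9 and 36.5 CPM in BcorΔE9-10 and at 38.3 and 11.1 CPM in BcorWT, in the order of the replicates. *Cox20-ps* is named as a pseudogene, whose reads the counting can split with a coding copy. With 4 libraries and this many genes, close profiles are a description only.

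*Itga4* (ENSMUSG00000027009, chromosome 2 from 79255426 to 79333123, plus strand) encodes the α4 chain shared by VLA-4 and LPAM-1. It had 330 and 321 counts in BcorΔE9-10 and 181 and 176 in BcorWT, which came to 61.0 and 52.3 CPM against 52.9 and 33.1 CPM. The highest BcorWT value lay just above the lowest BcorΔE9-10 value, so the genotypes overlapped by a narrow margin. The log2 fold change was 0.40 (standard error 0.35, 95% interval -0.41 to 1.21, edgeR adjusted p = 0.945). It stayed above 0 with each library left out, from 0.10 without BcorWT replicate 2 to 0.77 without BcorWT replicate 1. *Itga4* overlaps *Cerkl* on the opposite strand, which had 44 to 102 counts in these libraries, and whether the counting used strand is not stated, so its counts are uncertain to that extent.

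*Itgb1* (ENSMUSG00000025809, chromosome 8 from 128685654 to 128733200, plus strand), the β1 chain of VLA-4 and of many other integrins, had 344 and 296 counts in BcorΔE9-10 and 166 and 268 in BcorWT. Its 63.6 and 48.3 CPM in BcorΔE9-10 enclosed the 48.5 and 50.4 CPM in BcorWT. The BcorWT libraries were close, and 94.5% of genes differed more between them. This gave a log2 fold change of 0.18 (standard error 0.32, 95% interval -0.56 to 0.91, edgeR adjusted p = 0.965).

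*Itgb7* (ENSMUSG00000001281, chromosome 15 from 102215995 to 102231944, minus strand) encodes the β7 chain, which pairs with α4 in LPAM-1. It had 69 and 68 counts in BcorΔE9-10 and 58 and 115 in BcorWT. Both BcorΔE9-10 libraries (12.8 and 11.1 CPM) were below both BcorWT libraries (16.9 and 21.6 CPM), with DESeq2's size factors as well as with TMM. The mean of 11.9 ± 1.18 CPM (SD, n = 2) against 19.3 ± 3.33 CPM gave a log2 fold change of -0.70 (standard error 0.38, 95% interval -1.57 to 0.18), the lowest among the members. It did not pass the test (edgeR adjusted p = 0.945, unadjusted 0.103), and leaving out 1 library moved it no further than -0.86 and -0.51. Of the 3 T and NK cell markers with a row, *Nkg7*, which made up nearly all of their sum, overlapped between genotypes (147 and 128 CPM in BcorΔE9-10 against 128 and 251 CPM in BcorWT) and was lowest in BcorWT replicate 1. The other two, with 3 to 37 counts a library, were lower in BcorΔE9-10 without overlap, *Lck* (2.77 and 2.28 CPM against 5.26 and 6.96 CPM) and *Klrb1c* (1.48 and 0.489 CPM against 2.63 and 3.95 CPM). None of the 3 passed the test (adjusted p = 0.945 in edgeR for each), and their part in the *Itgb7* values was not tested. The sort took lineage-negative cells, and CD5, a T cell antigen, is among the lineage antigens of the study. What the gate left of T and NK cells was not tested. The other 7 listed markers, *Cd3e* among them, had no row among the genes analysed here, and the filter behind these rows is not given.

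The counts of the 2 subunits of an integrin can be set against each other within a library, which takes library scaling out. Priming and length of the 3′ end differ between genes, so the ratio was compared between libraries and its level was not read. For LPAM-1, log2(*Itga4*/*Itgb7*) was 2.26 and 2.24 in BcorΔE9-10 replicates 1 and 2, and 1.64 and 0.61 in BcorWT replicates 1 and 2. Both BcorΔE9-10 libraries were above both BcorWT libraries and nearly equal to each other. The difference of the means was 1.12 on the log2 scale, and it was 1.63 without BcorWT replicate 1 and 0.61 without BcorWT replicate 2. The exact permutation test (two-sided) gave p = 0.333, the smallest that 2 libraries against 2 allow. How often the ratio of any 2 genes separates these libraries was not counted. Of single genes, 16.8% were higher and 17.1% lower without overlap.

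For VLA-4, log2(*Itga4*/*Itgb1*) was -0.06 and 0.12 in BcorΔE9-10 and 0.12 and -0.61 in BcorWT. Only BcorWT replicate 2 stood apart, and the difference of 0.27 (exact permutation p = 1) became -0.10 without it and 0.64 without BcorWT replicate 1. For LFA-1, log2(*Itgal*/*Itgb2*) was 0.18 and -0.16 in BcorΔE9-10 and 0.48 and -0.47 in BcorWT. The BcorWT values enclosed those of BcorΔE9-10, and the means differed by 0.01 (exact permutation p = 1).

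**Figure D2:**
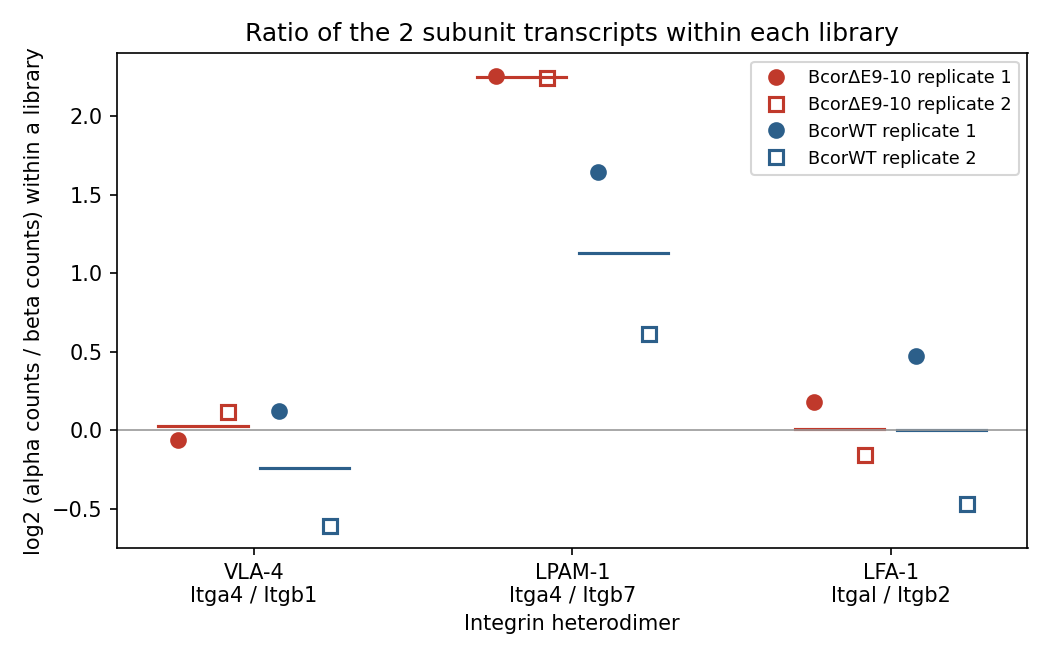
Log2 ratio of the counts of the α and β chain within each library, for 3 integrin heterodimers, with red for BcorΔE9-10, blue for BcorWT, filled circles for replicate 1, open squares for replicate 2 and lines for the mean of a genotype. The genotypes separate for LPAM-1 (2.24 and 2.26 against 0.61 and 1.64) and overlap for VLA-4 and LFA-1.

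*Itgal* (ENSMUSG00000030830, chromosome 7 from 127296260 to 127335138, plus strand), the αL chain of LFA-1, had 409 and 721 counts in BcorΔE9-10 and 338 and 588 in BcorWT. Its 75.6 and 118 CPM in BcorΔE9-10 enclosed the 98.7 and 111 CPM in BcorWT, and the log2 fold change was -0.12 (standard error 0.34, 95% interval -0.91 to 0.68, edgeR adjusted p = 0.977). *Itgb2* (ENSMUSG00000000290, chromosome 10 from 77530252 to 77565708, plus strand) encodes the β2 chain that LFA-1 shares with Mac-1 and other leukocyte integrins. It had 361 and 805 counts in BcorΔE9-10 and 243 and 812 in BcorWT, or 66.7 and 131 CPM against 71.0 and 153 CPM. In both genotypes replicate 2 was the higher, by 1.97-fold in BcorΔE9-10 and 2.15-fold in BcorWT, and the replicate numbers pair no animals or batches in the labels. The log2 fold change was -0.18 (standard error 0.47, 95% interval -1.28 to 0.92, edgeR adjusted p = 0.974).

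Mature neutrophils carry LFA-1 and Mac-1, and their 10 listed genes followed *Itgb2* in part. Between BcorΔE9-10 libraries 9 of the 10 were higher in replicate 2, as *Itgb2* was, and between BcorWT libraries 7 were higher in replicate 2 and 3 were not. *Ly6g*, a neutrophil surface antigen, was at 39.6 and 131 CPM in BcorΔE9-10 and at 94.6 and 174 CPM in BcorWT, and *Ltf*, which encodes lactoferrin of the secondary granules, at 914 and 2561 CPM against 1918 and 4483 CPM. The 3 genes that were not higher in BcorWT replicate 2 were *Camp* (6677 and 16381 CPM in BcorΔE9-10, 8972 and 6123 CPM in BcorWT), *S100a8* (44423 and 44112 CPM in BcorWT) and *Il1b* (3.10 to 3.50 CPM in all libraries). *Itgam*, the α chain of Mac-1 and one of the antigens used to remove lineage-positive cells, was at 73.7 and 159 CPM against 108 and 86.8 CPM. The lowest library for *Itgb2*, *Itgal* and *Cd44* was BcorΔE9-10 replicate 1, which was also lowest for the summed neutrophil list and for 8 of its 10 genes. The part of neutrophil RNA in the values of these receptors was not tested.

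*Selplg* (ENSMUSG00000048163, chromosome 5 from 113818536 to 113832644, minus strand) encodes the ligand of P-selectin, on which cells roll. It had 494 and 445 counts in BcorΔE9-10 and 299 and 933 in BcorWT. The 91.3 and 72.5 CPM in BcorΔE9-10 lay beside the 87.3 CPM of BcorWT replicate 1, and BcorWT replicate 2 was above them all at 176 CPM. The log2 fold change was -0.68 (standard error 0.40, 95% interval -1.62 to 0.25, edgeR adjusted p = 0.945). It was -1.10 without BcorWT replicate 1 (edgeR adjusted p = 0.0534) and -0.09 without BcorWT replicate 2, so its size rested on the latter.

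*Cd44* (ENSMUSG00000005087, chromosome 2 from 102811141 to 102901665, minus strand), the hyaluronan receptor, had 561 and 1032 counts in BcorΔE9-10 and 443 and 606 in BcorWT. Its 104 and 168 CPM in BcorΔE9-10 enclosed the 129 and 114 CPM in BcorWT. This gave a log2 fold change of 0.16 (standard error 0.35, 95% interval -0.65 to 0.97, edgeR adjusted p = 0.973). The counts come from the 3′ end, which the splice forms of *Cd44* share, so they do not tell its standard from its variant forms.

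*Cd47* (ENSMUSG00000055447, chromosome 16 from 49800533 to 49915010, plus strand), the signal that macrophages read through Sirpa, had 1480 and 2301 counts in BcorΔE9-10 and 1307 and 1068 in BcorWT. As with *Cxcr4*, its 274 and 375 CPM in BcorΔE9-10 lay between the 382 and 201 CPM of BcorWT replicates 1 and 2. The log2 fold change was 0.16 (standard error 0.40, 95% interval -0.78 to 1.09, edgeR adjusted p = 0.974), and it was 0.69 without BcorWT replicate 1 and -0.24 without BcorWT replicate 2. Among the members, *Cd47* was the one nearest to both *Cxcr4* and *Itga4* over the 4 libraries (distances 0.769 and 0.555), *Selplg* and *Itgb7* were nearest to each other (0.480), and so were *Itgal* and *Cd44* (0.366).

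**Figure D3:**
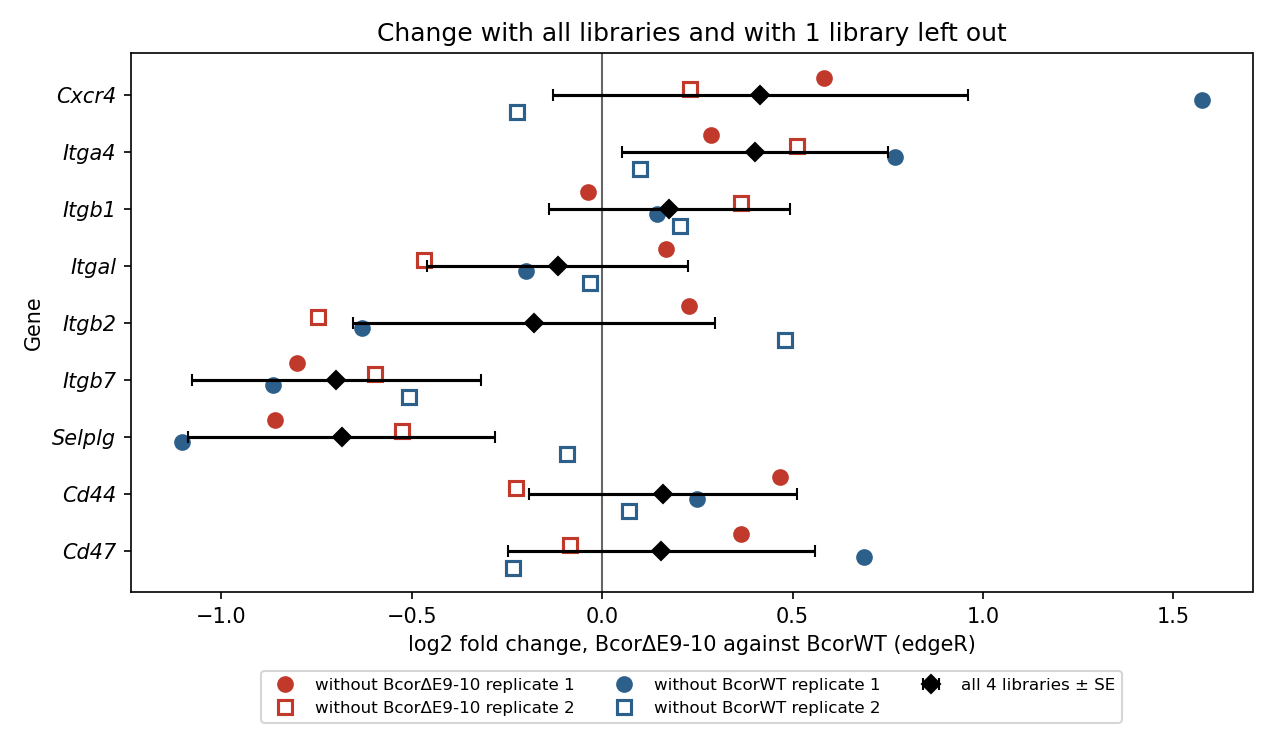
Log2 fold change of each receptor gene in edgeR with all 4 libraries (black diamonds, bars are 1 standard error) and with 1 library left out (red for a BcorΔE9-10 and blue for a BcorWT library left out, circles for replicate 1, squares for replicate 2). Only *Itga4*, *Itgb7* and *Selplg* stay on 1 side of 0, while *Cxcr4* runs from -0.22 to 1.57.

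For the members other than *Itgb7*, the wider gap between libraries of 1 genotype exceeded the fitted change between genotypes. The gap between replicates was wider in BcorWT for 6 members (*Cxcr4*, *Itga4*, *Itgb2*, *Itgb7*, *Selplg* and *Cd47*) and wider in BcorΔE9-10 for 3 (*Itgb1*, *Itgal* and *Cd44*). The median absolute gap of the members was 0.67 in BcorWT and 0.40 in BcorΔE9-10 on the log2 scale, beside 0.59 and 0.32 over all genes. BcorWT replicate 2 gave the lowest value of *Cxcr4*, *Itga4* and *Cd47* and the highest of *Itgb2*, *Itgb7* and *Selplg*. The direction of a member held in all 12 alternative fits for *Itga4*, *Itgb7* and *Selplg*, and the other 6 members changed sign when some library was left out.

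Genes that act with the receptors were read from 7 lists of 124 genes, of which 94 had a row. In edgeR 0 of the 94 passed an adjusted p under 0.05, and limma-voom and DESeq2 called 0 as well. At an unadjusted p under 0.05, 0 were higher and 3 lower (3.19%, beside 3.07% of all genes lower). Their CPM did not overlap between genotypes for 8 genes that were higher and 21 that were lower in BcorΔE9-10, 8.51% and 22.3% of the 94, beside 16.8% and 17.1% of all genes. The median log2 fold change was -0.04.

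The 3 genes below an unadjusted p of 0.05 belong to separate lists. *Mif*, a cytokine that also binds Cxcr4, had 618 and 695 counts in BcorΔE9-10 and 640 and 2594 in BcorWT, or 114 and 113 CPM against 187 and 488 CPM (log2 fold change -1.57, standard error 0.47). *Fn1*, which encodes the fibronectin that VLA-4 binds, had 8 and 29 counts in BcorΔE9-10 where BcorWT had 31 and 61, and differed by -1.71 on the log2 scale (standard error 0.64). *Lrp1*, a large endocytic receptor that reads calreticulin on cells to be engulfed, had 36 and 32 counts where BcorWT had 46 and 61, and differed by -1.07 on the log2 scale (standard error 0.44). For each of these both BcorΔE9-10 libraries were below both BcorWT libraries, and the edgeR adjusted p was 0.945.

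In the list of integrin activation and linkage to actin, 20 of 25 genes had a row, with a median log2 fold change of -0.35, 7 above 0 and 13 below. The GTPases that switch integrins on, *Rap1a* (65.8 and 73.2 CPM in BcorΔE9-10 against 58.1 and 49.3 CPM in BcorWT) and *Rap1b* (244 and 289 CPM against 187 and 206 CPM), did not overlap between genotypes and were higher in BcorΔE9-10. Their log2 fold changes were 0.37 (standard error 0.31) and 0.44 (standard error 0.31). *Rasgrp2*, the exchange factor that loads Rap1, was lower without overlap, at 324 and 361 CPM against 427 and 477 CPM. *Flna*, the filamin that competes with talin for β integrin tails, was at 327 and 483 CPM against 493 and 1032 CPM (log2 fold change -0.91, standard error 0.44). None of the 20 passed the test, and *Rap1a*, *Rap1b*, *Rasgrp2*, *Fermt3* and *Tln1* were chosen for mention after their values were seen. *Fermt3*, kindlin-3, was at 104 and 139 CPM against 103 and 143 CPM, and *Tln1*, talin, at 206 and 224 CPM against 182 and 372 CPM, so that both overlapped.

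The other lists gave medians near 0 or below it, with no gene called. Other integrin subunits had 8 of 22 genes with a row and a median of 0.03, and *Itgam* had the highest mean and *Itgax* the lowest p of these (4 and 14 counts against 5 and 26). Enzymes and cores of selectin ligands had 13 of 15 and a median of 0.08. Of these the sialomucin *Spn* was at 335 and 284 CPM in BcorΔE9-10 and 239 and 285 CPM in BcorWT, while *Cd34* was lower without overlap, at 52.1 and 41.7 CPM against 59.0 and 64.2 CPM (log2 fold change -0.39, standard error 0.31). *Fut7*, the fucosyltransferase that completes the selectin-binding sugar on *Selplg*, was at 34.9 and 31.0 CPM against 41.2 and 35.6 CPM, named after its values were seen. The list of *Cd44* linkers and hyaluronan genes had 5 of 8 and a median of 0.01. Of these *Msn* was at 262 and 380 CPM against 367 and 454 CPM, and *Hmmr* at 38.3 and 54.6 CPM against 42.3 and 23.0 CPM.

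Genes of *Cxcr4* signalling had 25 of 27 and a median of -0.01. Partners of *Cd47* had 5 of 6 and a median of -0.34, and *Sirpa*, its receptor on phagocytes, was at 139 and 156 CPM against 147 and 149 CPM, while calreticulin (*Calr*) was lower without overlap at 759 and 609 CPM against 892 and 836 CPM. Other homing and contact receptors had 18 of 21 and a median of -0.15, with *Cd63* the most abundant at 2168 and 1958 CPM in BcorΔE9-10 and 1881 and 3098 CPM in BcorWT. *Kit*, through which stem cell factor holds progenitors in the niche, was at 52.1 and 61.9 CPM against 53.7 and 29.4 CPM, again lowest in BcorWT replicate 2 (*Sirpa* and *Kit* were likewise named after their values were seen). Leaving out BcorWT replicate 1 gave calls for 5 of the 94 genes (5.32%, beside 4.94% of all genes in that fit), all lower in BcorΔE9-10 (*Mif*, *Grk6*, *Pxn*, *Cd74* and *Rac2*, log2 fold changes from -2.11 to -1.22, edgeR), and leaving out any of the other three libraries gave 0.

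**Figure D4:**
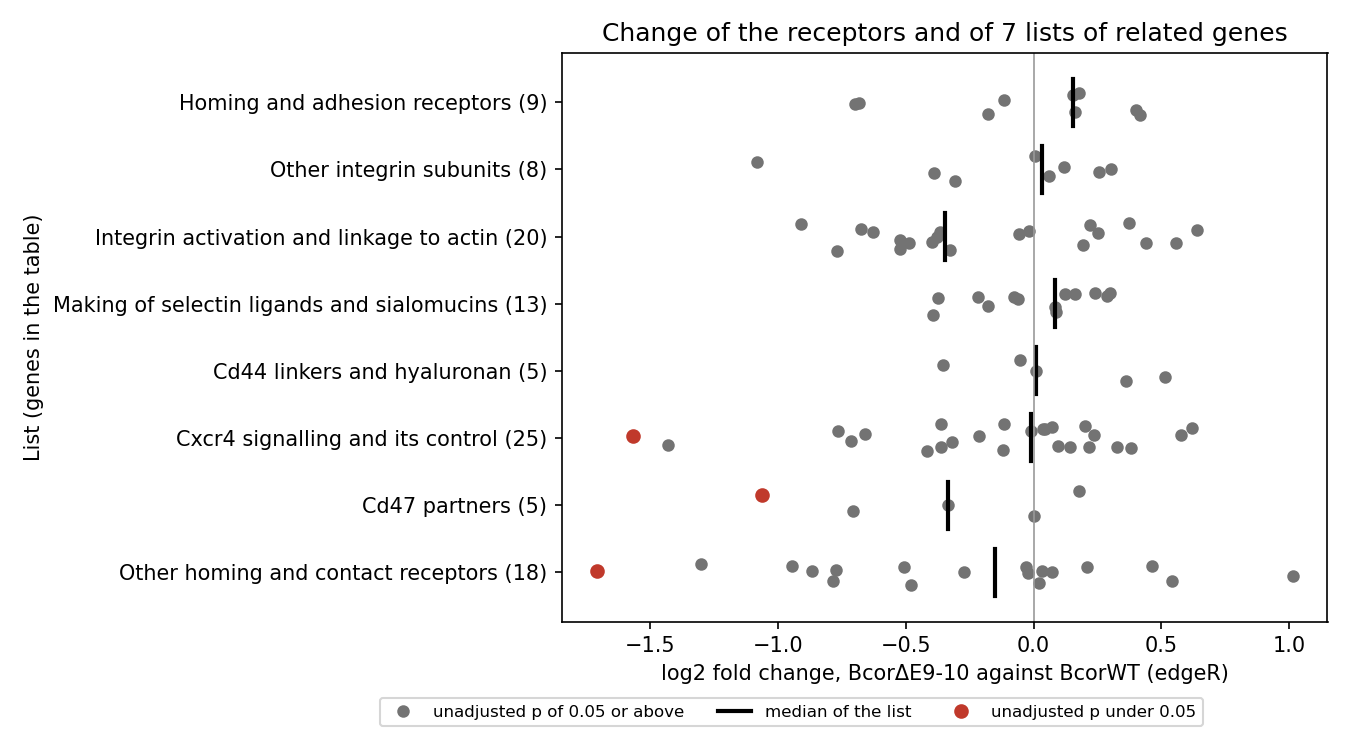
Log2 fold change in edgeR of the 9 receptor genes and of 94 related genes in 7 lists, 1 point a gene, with a line at the median of each list and red for an unadjusted p under 0.05. The receptors lie between -0.70 and 0.42, and the list of integrin activation and linkage to actin has the lowest median of the 8 rows, at -0.35.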

How the data were processed

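KL cells sorted from recipients were profiled with Quant-seq, which reads 1 fragment at the 3′ end of a transcript. Reads were quality-filtered by the authors, trimmed with cutadapt (version 1.7 in the submitters' processing notes), aligned to mm10 (GRCm38) with HISAT2 and assigned to genes with Subread. Gene counts without normalization were deposited. BcorΔE9-10 replicate 2 and BcorWT replicate 1 were deposited as values treated here like expected counts, since *Gm4430* alone is not whole there, and were rounded. The filter behind the table's genes is not given in the sources used here.

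Counts were analysed with edgeR 4.0.16 (filterByExpr, which removed 0 genes, TMM, quasi-likelihood F test, prior count 0.125, Benjamini-Hochberg over 12067 genes) in R 4.3.3. This test was taken in place of the authors' limma, which was run as an alternative (limma-voom, limma 3.58.1) beside DESeq2 1.42.0. The standard error is the size of a log2 fold change divided by the square root of F. Distances used log2 CPM with a prior count of 2. The 95% intervals of log2 fold changes include the spread between libraries, while the Wilson intervals and floors cover counting error only. Positions came from GENCODE M21, and *Adrbk1* was matched to *Grk2* through RefSeq synonyms. The fit was tested on simulated data. Python 3.11.15 with pandas 2.3.3 and matplotlib 3.10.9 drew tables and figures.

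The members and lists were chosen with earlier results of these data known. Named were all members, and the gene with the highest mean and the one with the lowest p of each list. Every member or related gene called in any fit was named too, as were the nearest genes by profile. The gene with the highest mean of the *Cxcr4* signalling list is not reported here. Genes named outside this rule are marked as such, are cell type markers, overlap a member (*Cerkl*) or bear on library makeup (*Gm42418*). Alternatives were DESeq2's size factors, *Gm42418* left out, no filter or a minimum of 10 counts per library, a prior count of 2, limma-voom, DESeq2, a block for the replicate number, and each library left out. Same-numbered libraries deviated from their group means with a correlation of -0.0945 over 12067 genes, and nothing in the labels pairs them, so the block is an alternative only.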

Additional observations from a re-analysis of the deposited data

How the results depend on the processing

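With every library kept, 0 receptors and 0 related genes were called in all 8 other settings, which tested all 94 related genes but for 80 with at least 10 counts in every library. Without the filter, which had removed 0 genes, and with a prior count of 2, the p-values of the members were those of the main fit. These settings, which are among the 12 alternative fits, add no separate check of the calls. With 1 library left out the members called ranged from 0 to 1 and the related genes called from 0 to 5, both highest without BcorWT replicate 1. Over all genes, 2 were called higher and 0 lower with every library. The numbers were 4 and 1 with at least 10 counts in every library, 5 and 9 with the replicate block, 4 and 0 with limma-voom, and 19 and 24 with DESeq2. With 1 library left out they ranged from 4 to 183 higher and from 2 to 413 lower, highest without BcorWT replicate 1. In these fits the lone library is assumed to vary like the other genotype. The causes were not tested.

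Reversed log2 fold changes, 8 of 108 member values, came from leaving out a library. Without BcorΔE9-10 replicate 1 these were *Itgb1* (-0.036), *Itgal* (0.17) and *Itgb2* (0.23), without BcorΔE9-10 replicate 2 *Cd44* (-0.23) and *Cd47* (-0.08), and without BcorWT replicate 2 *Cxcr4* (-0.22), *Itgb2* (0.48) and *Cd47* (-0.24). At the other end of the range with 1 library left out were *Itgb1* at 0.37, *Itgal* at -0.47, *Itgb2* at -0.75, *Cd44* at 0.47, *Cd47* at 0.69 and *Cxcr4* at 1.57. The subunit ratio of LPAM-1 ranged from 0.61 to 1.63, that of VLA-4 from -0.10 to 0.64 and that of LFA-1 from -0.47 to 0.48, where -0.16 was the value without BcorΔE9-10 replicate 1. Counts per gene limit no receptor here, but 2 libraries a genotype leave 95% intervals as wide as -0.85 to 1.68 for *Cxcr4*.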
